A study of Sus scrofa with 6 samples.

Results

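The ARP2/3 complex and beta actin were followed in RNA from IPEC-J2 cells, through the mRNAs of 9 ARP2/3 subunit genes (ACTR2, ACTR3, ARPC1A, ARPC1B, ARPC2, ARPC3, ARPC4, ARPC5 and ARPC5L) and of ACTB. These 10 genes were taken by name from the 31908 Ensembl pig gene IDs of the deposited table. They were selected on measured values: the difference between treated and control cells was already known, including the low listed level of ARPC5 in treated cells. The values of these 10 genes in that comparison are therefore given as a description, without a test.

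The ARP2/3 complex starts new actin filaments as branches on the sides of existing ones. Its actin-related subunits, ARP2 (encoded by ACTR2) and ARP3 (ACTR3), form the seed of the branch, and the ARPC subunits hold them together and bind the mother filament. ARPC1A and ARPC1B are alternative forms of one subunit, as are ARPC5 and ARPC5L. ACTB encodes beta actin, a cytoplasmic actin from which such filaments are built. In the intestinal epithelium, actin networks support microvilli, cell junctions and the movement of cells along a wound edge.

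All libraries came from 1 line of pig gut cells, IPEC-J2, which arose from the jejunum without deliberate immortalization. The control group (CON) received PBS, and the treated group (CDCA) received 50 μM chenodeoxycholic acid, a primary bile acid, each for 24 h. The experiment asked how the transcriptome of these cells differs after the bile acid. Each group had 3 libraries. The paper terms them biological replicates, and neither it nor the labels state whether they came from separate cultures, so p-values measure the spread between these libraries, part of which may be technical.

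Transcripts had been quantified by the authors with RSEM, and the deposited values are TPM, a relative transcript level already divided by transcript length. Without read counts the depth is unknown, and counting intervals are not given. The listed TPM summed to between 351770 and 366073 per library. A full set of TPM sums to 1000000, so a large part of the quantified level is not among the listed transcripts. Several genes of general use to cells had almost no listed level. MYH9, for example, the heavy chain of a nonmuscle myosin, was listed at 0, 0.25 and 0.43 TPM across CON, against 0.73, 0.18 and 0.68 TPM under CDCA. A gene's level therefore covers its listed transcripts and can miss others. The epithelial keratins KRT8 and KRT18 and the adhesion gene EPCAM were listed above 60 TPM in every library, whereas CDH1 and VIL1 stayed under 1 TPM.

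Differences were taken from limma on log2(TPM + 1) over the 8708 genes that reached a mean of 1 TPM, and a gene was called at an adjusted p (FDR) under 0.05 and a log2 fold change over 1 in size. Of the 10 genes, 9 passed the limit on the mean and ACTR2 did not. By these limits 1 of the 9, ARPC5, counted as lower, an outcome that the choice of the genes fixed and that is no test. Over all tested genes, 3.9% were called lower, 3.51% higher and 7.42% in either direction. For 7 of the 9 genes the CON and CDCA libraries did not overlap, with CDCA above CON for 2 and below CON for 5. Over all tested genes, the groups did not overlap for 61.5%, with CDCA above for 33.7% and below for 27.8%. The median log2 fold change was -0.11 over the 9 genes and 0.05 over all tested genes.

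**Figure D1:**
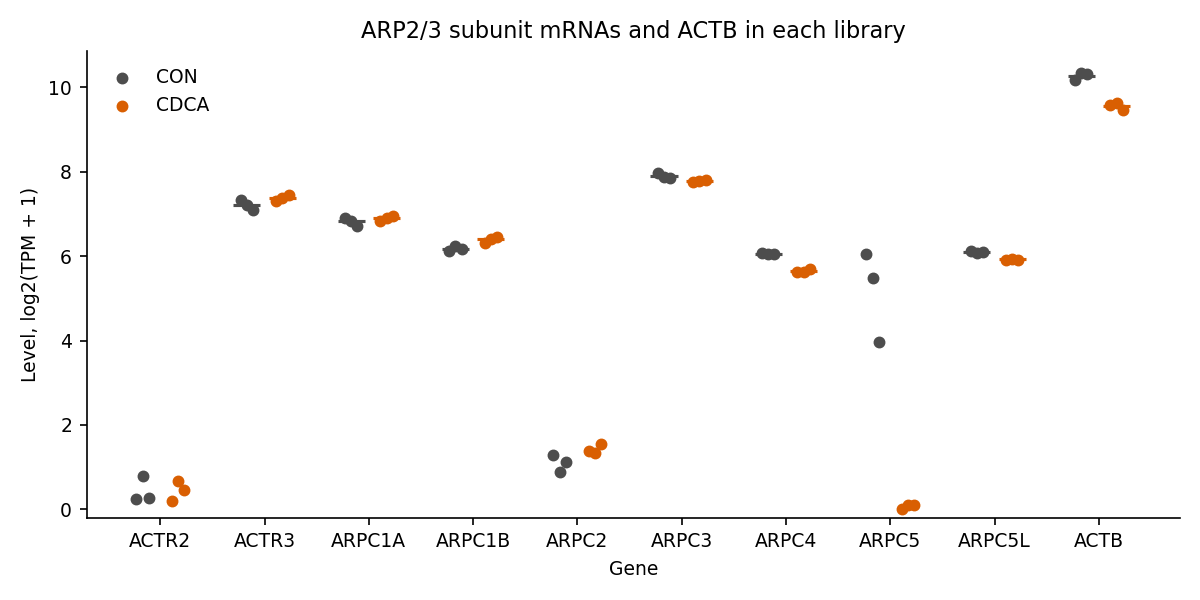
Level of each ARP2/3 subunit mRNA and of ACTB on the log2(TPM + 1) scale, with 1 point per library, 3 CON (grey) and 3 CDCA (orange); lines mark the group mean and are left out for ARPC5, ARPC2 and ACTR2. ARPC5 is the gene whose 3 CDCA points lie at the bottom of the axis far from its CON points, its 3 CON points are the most widely spread, and ACTR2 and ARPC2 lie near the bottom in both groups.

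ARPC5 encodes the smallest subunit of the complex. It was listed at 65.76, 43.49 and 14.75 TPM across CON, against 0, 0.07 and 0.07 TPM under CDCA. All 3 CDCA libraries lay near the smallest value the table can hold, and all 3 CON libraries lay far above them. Its log2 fold change of -5.11 ± 0.486 (SE, n = 3 per group) was the lowest of all 8708 tested genes, but this value depends on the pseudocount and was -7.94 with 0.1 TPM added in place of 1 TPM. The gene was chosen with this low level known and reached the limit on the mean through CON alone, so its rank is no test. Whether an exact 0 here is a true absence or a failed estimate was not tested.

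The CON libraries themselves differed widely in ARPC5. The highest CON level was 4.46 times the lowest, and the SD of log2(TPM + 1) in CON was 1.07 (n = 3), higher than in 98.99% of the tested genes. The other 8 tested genes of the group had an SD between 0.02 and 0.20 in CON on the same scale. CON replicate 3 had the lowest ARPC5 level of the controls, and without it the log2 fold change was -5.70. ARPC5 had 1 listed transcript, so its level could not be compared between transcripts of the gene. Of the 2197 tested genes with 1 listed transcript, 119 were called lower, against 340 (3.9%) of all 8708 tested genes.

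ARPC5L encodes the alternative form of the ARPC5 subunit. It was listed at 68.68, 66.68 and 67.43 TPM across CON, against 59.31, 60.54 and 59.28 TPM under CDCA. Its libraries lay close together within each group, with means of 67.6 ± 1.01 and 59.7 ± 0.719 TPM (SD, n = 3), and CDCA lay below CON. The log2 fold change was -0.18 ± 0.0347 (SE). In CDCA, ARPC5L thus did not lie higher in the libraries where ARPC5 was listed near 0.

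As a share of the summed TPM of ARPC5 and ARPC5L, ARPC5 made up 48.9%, 39.5% and 17.9% across CON, against 0%, 0.115% and 0.118% under CDCA. The sum of both was 134.44, 110.17 and 82.18 TPM across CON, against 59.31, 60.61 and 59.35 TPM under CDCA. Nearly all of the spread of this sum among CON libraries came from ARPC5, and its CDCA values were those of ARPC5L.

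**Figure D2:**
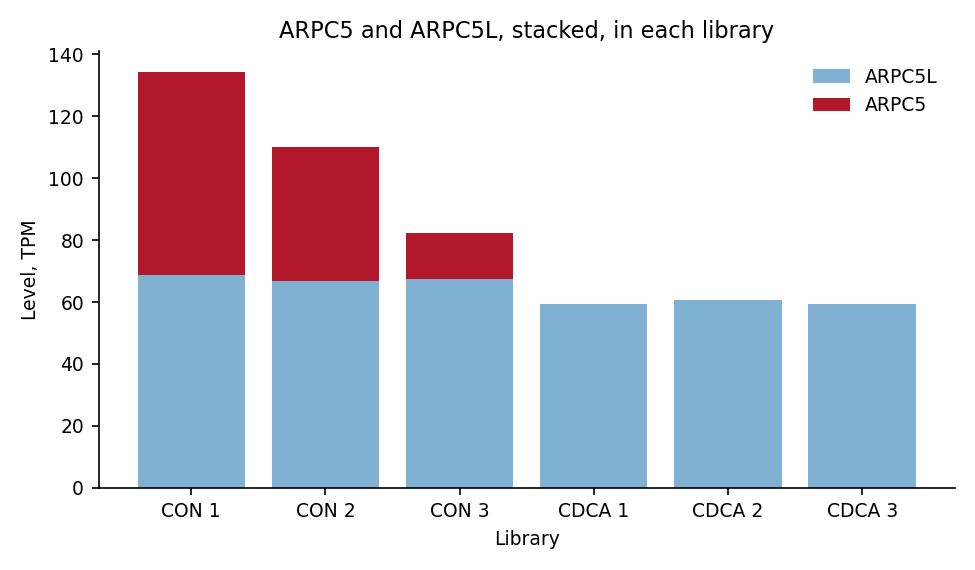
Summed level in TPM of ARPC5L (blue) and ARPC5 (red) in each of the 6 libraries, stacked. ARPC5L stays between 59.28 and 68.68 TPM throughout, while ARPC5 lies between 14.75 and 65.76 TPM in the CON libraries and cannot be seen at this scale in the CDCA libraries.

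ARPC1A and ARPC1B encode the alternative forms of the subunit that contacts the activators, and they lie next to each other in the RefSeq annotation of Sscrofa11.1. ARPC1B was listed at 68.22, 74.18 and 71.29 TPM across CON, against 78.31, 84.34 and 87.04 TPM under CDCA. Every CDCA library lay above every CON library, and the log2 fold change was 0.22 ± 0.054 (SE). ARPC1A was listed at 119.5, 112.57 and 104.63 TPM across CON, against 113.09, 119 and 122.5 TPM under CDCA. Its groups overlapped, and its log2 fold change of 0.08 ± 0.0583 turned to -0.08 when the mtDNA-encoded genes were left out of the totals. ARPC1B made up 38.9% ± 2.22 of the summed TPM of the pair in CON and 41.3% ± 0.344 in CDCA (SD, n = 3). The 3 CDCA shares, 40.9%, 41.5% and 41.5%, lay just above the highest CON share of 40.5%.

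The ARPC4 subunit forms the core of the complex together with ARPC2. ARPC4 was listed at 66.76, 65.19 and 64.86 TPM across CON, against 48.15, 48.17 and 51.19 TPM under CDCA. Its means were 65.6 ± 1.02 and 49.2 ± 1.75 TPM (SD, n = 3), with CDCA below CON by far more than the spread of either group, and the log2 fold change was -0.41 ± 0.0411 (SE). Both of its main transcripts, out of 8 listed, lay lower in CDCA, at 0.742 and 0.755 times the CON mean. The gene ID of these transcripts carries the name ARPC4 in the deposited table and the name of the neighbouring gene TTLL3 in the table of symbols, so transcripts of TTLL3 may be among them.

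ARPC3, a small subunit at the ARP3 side of the complex, was the most abundant ARP2/3 mRNA. It was listed at 250.07, 234.56 and 229.05 TPM across CON, against 216.91, 218.99 and 223.89 TPM under CDCA. CDCA lay below CON, although the closest libraries of the groups were only a few TPM apart, and the log2 fold change was -0.11 ± 0.0423 (SE).

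ACTR3 encodes ARP3 itself. It was listed at 159.29, 146.06 and 135.74 TPM across CON, against 157.9, 165.79 and 172.47 TPM under CDCA, and the groups overlapped (log2 fold change 0.17 ± 0.0657, SE). Its transcripts did not follow one pattern. The main one was listed at 122.27, 118.66 and 108.47 TPM across CON, against 139.53, 136.23 and 136.09 TPM under CDCA, without overlap. The second was listed at 32.79, 23.53 and 22.63 TPM across CON, against 13.56, 23.1 and 31.41 TPM under CDCA, where the groups overlapped and the CDCA libraries were more widely spread than the CON libraries. The near copy ACTR3B was far lower, at 2.43 ± 0.192 TPM in CON and 3.15 ± 0.291 TPM in CDCA (SD, n = 3; limma FDR 0.0524, but 0.0278 without the trend and 0.0445 with the listed TPM rescaled), and made up 1.64% ± 0.234 and 1.87% ± 0.138 of the summed TPM of both genes.

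ARPC2 and ACTR2 encode core subunits of the complex, yet both were listed at or under 2 TPM in every library. ARPC2 was listed at 1.44, 0.86 and 1.16 TPM across CON, against 1.59, 1.54 and 1.94 TPM under CDCA. CDCA lay above CON, and the log2 fold change of 0.33 ± 0.141 (SE) moved to 0.53 with a pseudocount of 0.1 TPM. ACTR2 was listed at 0.18, 0.73 and 0.21 TPM across CON, against 0.15, 0.59 and 0.37 TPM under CDCA, and its groups overlapped. The 2 listed transcripts of ARPC2 and the 3 of ACTR2 were all low, each with a mean under 1 TPM, so the levels of these genes may not stand for their full mRNA.

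**Figure D3:**
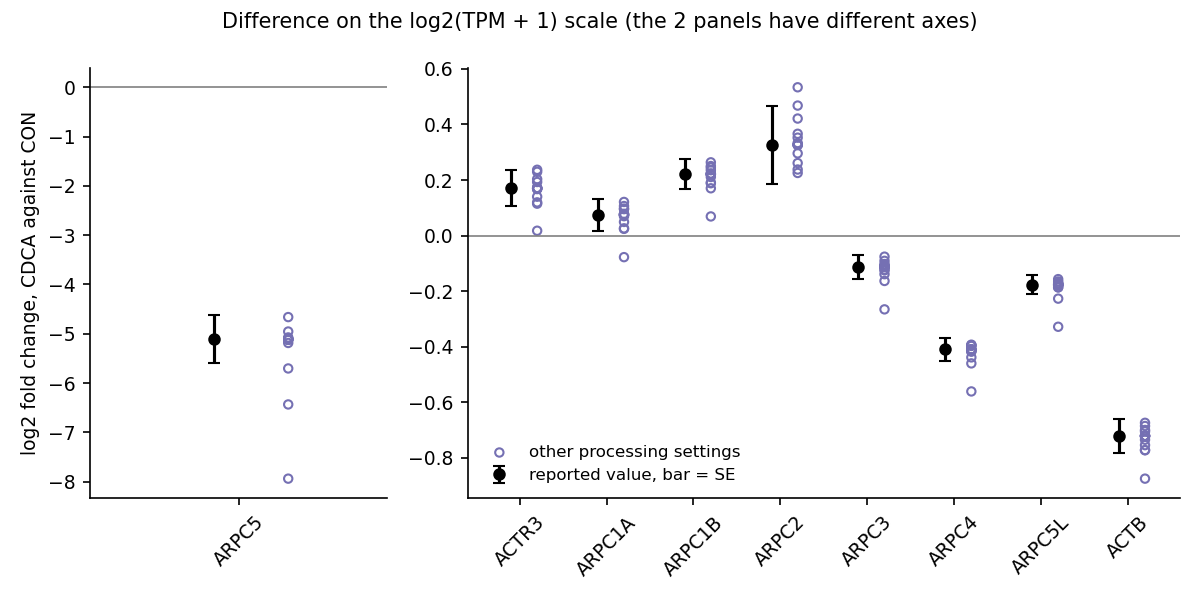
Log2 fold change of CDCA against CON on the log2(TPM + 1) scale for the 9 genes that passed the limit on the mean, ARPC5 on an axis of its own, with the reported value and its SE (black) and the values under the other processing settings (open circles, one of them with 0.1 TPM added in place of 1 TPM). ARPC5 stays under -4 in every setting and reaches -7.94 in one, ARPC1A crosses 0, and ARPC4 and ACTB lie below 0 throughout.

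ARPC1B and ACTR3 came close to 0, at log2 fold changes of 0.07 and 0.02, with totals without the mtDNA-encoded genes, and ARPC3 (-0.27), ARPC5L (-0.33) and ARPC4 (-0.56) lay further below 0.

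The order of the levels, which TPM allows between genes because it is per length, was ACTB, ARPC3, ACTR3, ARPC1A, ARPC1B, ARPC5L, ARPC4, ARPC5, ARPC2 and ACTR2 in CON, from high to low. Neighbours overlapped there for ARPC1B and ARPC5L, for ARPC5L and ARPC4, and for ARPC4 and ARPC5. In CDCA the order was the same down to ARPC4 and then ran ARPC2, ACTR2 and ARPC5, and no neighbours overlapped. The highest CDCA values of ARPC2, ACTR2 and ARPC5 were 1.94, 0.59 and 0.07 TPM, so their order rests on very low levels. The 9 ARP2/3 genes summed to 799.9, 744.32 and 689.12 TPM in CON and to 675.41, 699.03 and 718.75 TPM in CDCA, with overlap. Without ARPC5 the sums were 734.14, 700.83 and 674.37 TPM in CON and 675.41, 698.96 and 718.68 TPM in CDCA, a ratio of the means of 0.992. Such ratios depend on scaling. With totals without the mtDNA-encoded genes, the 9-gene sum in CDCA was 0.84 times that in CON, against 0.94. The ratio without ARPC5 is not given for that setting, and ARPC2 and ACTR2 add little to either sum. In these bulk libraries, fewer cells that express a gene and less of its mRNA per cell cannot be told apart.

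ACTB was by far the most abundant of the 10 genes. It was listed at 1153.76, 1302.06 and 1267.05 TPM across CON, against 766.33, 787.22 and 704.23 TPM under CDCA. The highest CDCA library lay well below the lowest CON library, with means of 1241 ± 77.5 and 753 ± 43.2 TPM (SD, n = 3), a ratio of 0.607. The log2 fold change was -0.72 ± 0.0625 (SE), within the limit of 1 for a call. One of its 3 listed transcripts carried nearly all of this level, from 703.58 to 1301.55 TPM over the 6 libraries, and the other transcripts stayed under 1 TPM. The study's methods name beta actin or GAPDH as the reference gene of its RT-qPCR, and the paper reports that RT-qPCR resembled RNA-seq for the genes it checked. Its mtDNA copy number was measured on genomic DNA with the beta actin gene as nuclear reference, so it did not use ACTB mRNA. Neither measurement was analysed here.

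ACTG1 encodes gamma actin, the other cytoplasmic actin, which differs from beta actin in a few residues, so that reads common to both had to be divided between them. It was listed at 2819.64, 3005.45 and 2807.5 TPM across CON, against 2626.21, 2836.05 and 2539.27 TPM under CDCA, and the groups overlapped (log2 fold change -0.11 ± 0.0535, limma FDR 0.127). This value is sensitive to scaling: it was -0.26 on the log2 scale with totals without the mtDNA-encoded genes (limma FDR 0.00203), and without CDCA replicate 2 it was -0.16 (limma FDR 0.0431). ACTB made up 29.0%, 30.2% and 31.1% of the summed TPM of both actins in CON and 22.6%, 21.7% and 21.7% in CDCA, a share that does not depend on the scaling of a library. The sum of both was 4118 ± 171 TPM in CON and 3420 ± 191 TPM in CDCA (SD, n = 3), without overlap.

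**Figure D4:**
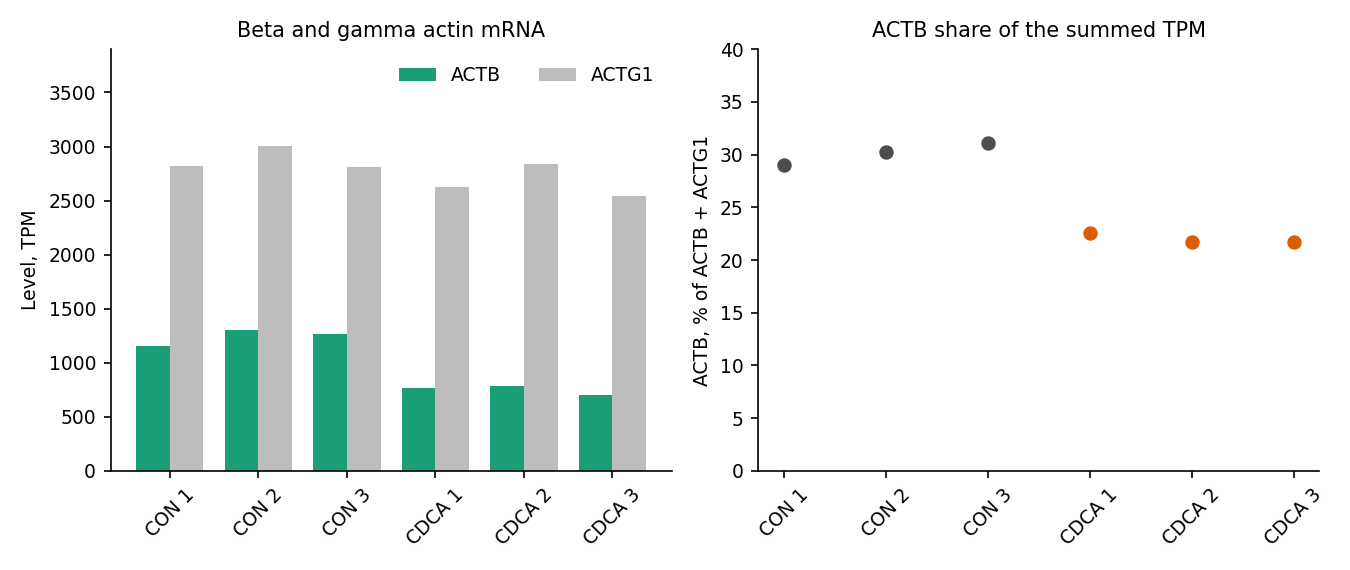
Left, level in TPM of ACTB (green) and ACTG1 (grey) in each library; right, ACTB as a percentage of the summed TPM of both, CON in grey and CDCA in orange. ACTB lies at 1153.76 TPM or above in CON and at 787.22 TPM or below in CDCA, ACTG1 overlaps between the groups, and the share lies in separate ranges, 29.0% to 31.1% and 21.7% to 22.6%.

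The tested genes whose log2(TPM + 1) ran most like that of ARPC5 over the 6 libraries were RAD21, CAV2, CIP2A, NUP155 and HNRNPH1, with Pearson's r from 0.9993 down to 0.9972. RAD21, a cohesin subunit, was listed at 129.84, 125.8 and 115.51 TPM across CON, against 90.72, 89.59 and 90.57 TPM under CDCA, so it shared the order of the CON libraries with ARPC5 but not the near absence in CDCA. Among the 10 genes, r with ARPC5 was 0.97 for ARPC4 and ARPC5L, 0.93 for ACTB and 0.91 for ARPC3, and it was below 0 for ARPC1A, ACTR3, ARPC2 and ARPC1B (-0.88). The genes most like ACTB were VWA1, CCDC85B, SELENOO, PGP and TONSL, with r from 0.9994 down to 0.9973. These correlations describe 6 libraries in 2 groups, which share their group difference, and carry no test.

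Other actin genes were followed in 6 lists with 136 genes, of which 87 passed the limit on the mean. By limma over all tested genes, 53 of the 87 passed an FDR of 0.05, of which 32 rose and 21 fell in CDCA. Over all tested genes, 53.2% passed, 29.3% in the higher and 23.9% in the lower direction. Of the 87 genes, 1 was called higher and 3 lower. This balance depends on scaling. The part of the listed TPM held by genes outside the mtDNA was 85.0% to 86.2% across CON, against 96.5% to 97.1% under CDCA, and with totals without the mtDNA-encoded genes the median log2 fold change of all tested genes moved from 0.05 to -0.08, while 17 of 86 list genes rose and 28 fell. Over all tested genes, 306 were called higher and 340 lower, against 221 and 449 with those totals.

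The list of activators of the ARP2/3 complex, which also holds adaptors and other partners, had 30 genes, of which 16 were tested. Their median log2 fold change was 0.29 (0.15 to 0.33 over the other settings, lowest with totals without the mtDNA-encoded genes). Of the 16, 11 rose and 2 fell, where 29.3% of all tested genes rose and 23.9% fell. WASHC1, the WASH protein that activates the complex on endosomes, was called higher (1.41 ± 0.401 TPM in CON and 4.01 ± 0.797 TPM in CDCA, SD, n = 3; log2 fold change 1.05, limma FDR 0.00221), but its log2 fold change was under the limit of 1 with totals without the mtDNA-encoded genes (0.95), without CON replicate 3 (0.97) and without CDCA replicate 3 (0.96). The adaptor NCK2 rose from 26.6 ± 2.26 to 45.1 ± 0.920 TPM (log2 fold change 0.74, limma FDR 0.000146). NCKAP1, a scaffold of the WAVE complex, rose from 46.7 ± 2.60 to 69.8 ± 3.87 TPM (0.57 on the log2 scale, limma FDR 0.000347), and its small partner BRK1 by 0.20 on the log2 scale (limma FDR 0.00507), or 0.04 (limma FDR 0.334) with those totals. WASHC4, a WASH complex subunit, rose by 0.76 on the log2 scale (limma FDR 0.02), but it did not pass without CON replicate 2 (limma FDR 0.0555), CDCA replicate 2 (0.0608) or CDCA replicate 3 (0.0606), or with no filter on low values (0.0531). With totals without the mtDNA-encoded genes, 5 genes of this list rose and 2 fell, and without CDCA replicate 3, 7 rose and 2 fell. The 2 falls, in ABI1 and TRIP10, both picked after their values were seen, had a limma FDR of 0.0164 and 0.0304. Without CON replicate 2 neither passed (limma FDR 0.0589 and 0.0715), nor without CDCA replicate 1 (0.0569 and 0.0643) or CDCA replicate 2 (0.052 and 0.0756), and TRIP10 did not pass without CON replicate 3 (0.0839).

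Of 10 tested branch stabilizers and inhibitors, 2 rose and 1 fell, and with totals without the mtDNA-encoded genes 1 rose and 3 fell. Their median log2 fold change of 0.06 changed sign between settings (-0.06 to 0.14), for example without CON replicate 1 (-0.05), without CON replicate 3 (-0.06) and with those totals (-0.05). ARPIN, an inhibitor of the ARP2/3 complex, rose from 12.1 ± 0.613 to 18.8 ± 2.70 TPM (log2 fold change 0.59, limma FDR 0.00295). CTTN encodes cortactin, which stabilizes branches, and rose by 0.25 on the log2 scale (limma FDR 0.00491), but it did not pass with those totals (0.10, limma FDR 0.114) or with the highest listed transcript (limma FDR 0.0563). CORO1C, a coronin, fell by 0.27 on the log2 scale (limma FDR 0.0104; -0.42 with those totals), whereas CORO1B was listed at 42.9 TPM in CON and 39.9 TPM in CDCA (limma FDR 0.171, but 0.00795 with those totals and 0.0285 with the highest listed transcript).

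Among 9 tested other actins and actin-related proteins, 3 rose and 1 fell, with a median log2 fold change of 0.25 (0.12 to 0.34 over the other settings), while 2 rose and 2 fell under median ratio scaling and with totals without the mtDNA-encoded genes. ACTR10, a dynactin subunit, rose from 27.9 ± 2.60 to 38.5 ± 0.453 TPM (log2 fold change 0.45, limma FDR 0.00188), and ACTR8, of a chromatin remodelling complex, rose by 0.45 on the log2 scale (limma FDR 0.00377). ACTR1B was near the threshold (log2 fold change 0.25, limma FDR 0.0459) and passed it in 1 of the 6 fits that left out a library. The 1 fall, that of ACTL6A (limma FDR 0.0236), picked after its values were seen, was lost without CON replicate 1 (0.066), CON replicate 2 (0.0638), CDCA replicate 1 (0.0769) or CDCA replicate 2 (0.0723).

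Genes of actin monomers and filament turnover moved in both directions, with 9 of 20 tested genes rising and 6 falling, at a median log2 fold change of 0.05 that changed sign between settings (-0.08 with totals without the mtDNA-encoded genes to 0.19 with the listed TPM rescaled). CFL1, the filament-severing cofilin, fell from 665 ± 28.5 to 452 ± 7.70 TPM (log2 fold change -0.55, limma FDR 7.68e-05). TMSB10, a monomer-binding thymosin and the most abundant gene of the lists, fell from 9750 ± 270 to 7949 ± 183 TPM (-0.29 on the log2 scale, limma FDR 0.00111; -0.45 with totals without the mtDNA-encoded genes). The cofilin kinases moved apart: LIMK2 fell from 48.2 ± 0.432 to 24.1 ± 1.66 TPM (log2 fold change -0.98, limma FDR 2.92e-05), and LIMK1 rose from 2.73 ± 0.338 to 6.26 ± 0.359 TPM (0.97, limma FDR 0.000248). Both lay near the limit of 1 and passed it in 5 of the 15 other settings, up to -1.48 for LIMK2 and 1.48 for LIMK1, in both cases with the highest listed transcript. Without CDCA replicate 3 both passed it (-1.03 and 1.01), as did LIMK1 without CON replicate 3 (1.04). CAPZA1, a capping protein subunit counted among the rises, was listed at 0.880 ± 0.407 TPM in CON and 2.53 ± 0.629 TPM in CDCA (SD, n = 3), so that it reached the limit on the mean through CDCA. With totals without the mtDNA-encoded genes, 5 rose and 7 fell.

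Of 12 tested formins and other nucleators or elongators, 5 rose and 2 fell, at a median log2 fold change of 0.23 that was 0.06 without CDCA replicate 2, 0.11 with totals without the mtDNA-encoded genes and 0.02 with no filter on low values. DIAPH3, a formin that builds unbranched filaments, was called lower, from 9.01 ± 0.960 to 2.88 ± 0.0917 TPM (log2 fold change -1.36, limma FDR 4.99e-05). The filament elongators ENAH and VASP rose by 0.49 and 0.40 on the log2 scale (limma FDR 0.000318 and 0.00207), VASP by 0.25 with totals without the mtDNA-encoded genes. FMNL1, another formin and counted among the rises, was listed at 0.403 ± 0.152 TPM in CON and 1.66 ± 0.220 TPM in CDCA (SD, n = 3), so that it reached the limit on the mean through CDCA alone and had to differ to be tested. It missed that limit without any one of the CDCA libraries, with totals without the mtDNA-encoded genes and with the highest listed transcript. The remaining rises were in FMNL3 and DAAM1 and the other fall in DIAPH1 (log2 fold change 0.48, 0.40 and -0.47; limma FDR 0.0331, 0.0103 and 0.00122), all picked after their values were seen. FMNL3 was above an FDR of 0.05 with totals without the mtDNA-encoded genes (0.0635), without CON replicate 1 (0.0884) or 3 (0.0797) and without CDCA replicate 1 (0.0848) or 2 (0.0953), and at 0.05 without CON replicate 2. The count of rises was 3 without CDCA replicate 1 or 2, and 3 with totals without the mtDNA-encoded genes.

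Bundling, crosslinking and myosin genes had a median log2 fold change of -0.24 (-0.38 to -0.14 over the other settings, and -0.16 without CDCA replicate 3), with 2 of 20 tested genes rising and 9 falling. The filament bundler FSCN1 was called lower, from 10.6 ± 0.690 to 3.04 ± 0.251 TPM (log2 fold change -1.53, limma FDR 2.27e-05), as was the crosslinker ACTN1, from 66.7 ± 2.33 to 28.5 ± 1.40 TPM (-1.20, limma FDR 1.03e-05). The myosin light chain MYL9 fell from 19.0 ± 3.03 to 10.6 ± 0.671 TPM (-0.78 on the log2 scale, limma FDR 0.00177), and calponin CNN2 from 298 ± 10.8 to 190 ± 4.23 TPM (-0.65, limma FDR 3.86e-05). The 2 rises were in MYH14 and MSN, picked after their values were seen (0.63 and 0.27 on the log2 scale, limma FDR 0.000347 and 0.00249), and MSN did not pass with totals without the mtDNA-encoded genes (0.12, limma FDR 0.062). MYL6 was near the threshold (-0.15, limma FDR 0.0475) and passed it in 1 of the 6 fits that left out a library. With totals without the mtDNA-encoded genes, 1 rose and 12 fell.

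**Figure D5:**
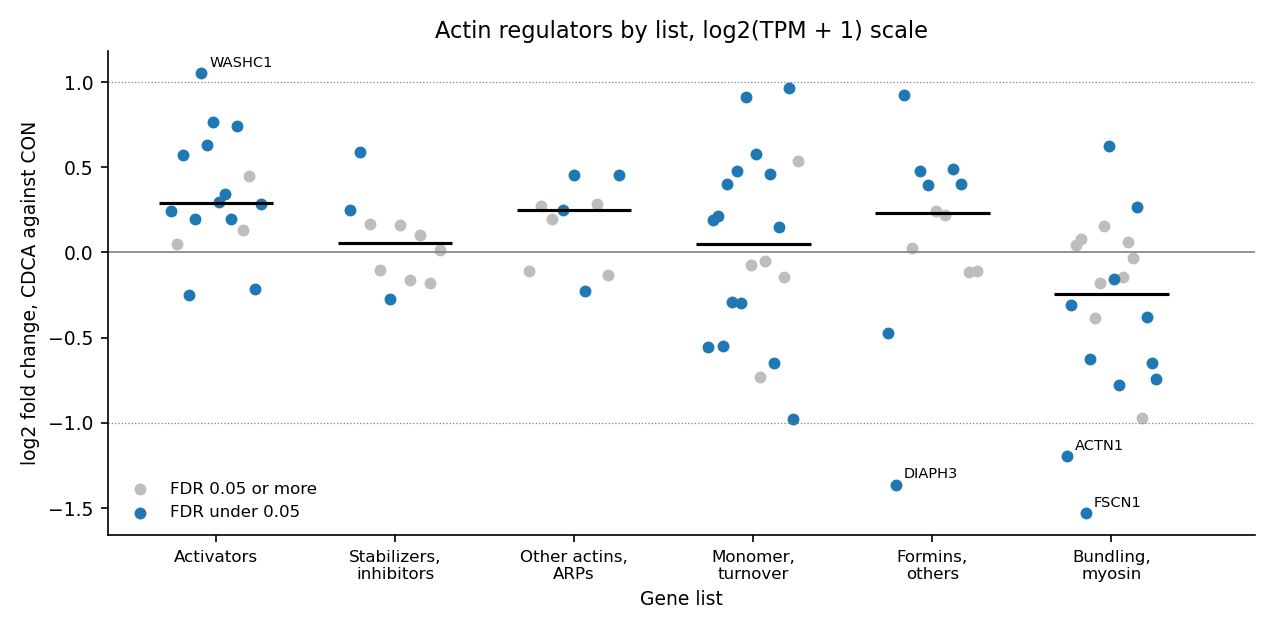
Log2 fold change of CDCA against CON on the log2(TPM + 1) scale for the 87 tested genes of 6 actin lists, 1 point per gene, blue where the limma FDR was under 0.05, with the median of each list as a line and dotted lines at 1 and -1. The 4 called genes are named: WASHC1 above 1, and DIAPH3, ACTN1 and FSCN1 below -1.

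Markers of other cell types were low, and their part in these values was not tested. The 7 mesenchymal markers summed to 1.35 to 1.83 TPM in CON and to 1 to 1.15 TPM in CDCA, with none over a mean of 1 TPM, and LUM was at 0 in every library. The 4 smooth muscle markers summed to 0.12 to 0.54 TPM in CON and 0.37 to 0.49 TPM in CDCA, and ACTA2 was listed at or under 0.04 TPM. The 3 endothelial markers with values summed to 2.2 to 2.69 TPM in CON and 1.87 to 2.33 TPM in CDCA. The 4 immune markers summed to 0.44 to 1.32 TPM in CON and 4.86 to 5.97 TPM in CDCA, where CD68 was at 4.44 to 5.33 TPM, against 0 to 0.26 TPM across CON, while the pan-leukocyte marker PTPRC did not exceed 0.01 TPM. The 6 epithelial markers with values summed to 624.37 to 648 TPM in CON and 1182.35 to 1321.68 TPM in CDCA, where CLDN4 was at 764.85 to 862.66 TPM, against 214.59 to 236.86 TPM across CON.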

How the data were processed

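Total RNA from 6 libraries (3 CON, 3 CDCA) was sequenced by the authors on an Illumina instrument, quantified with RSEM and deposited as TPM with at most 2 decimals for 63041 listed transcripts. The submitters' processing notes name Bowtie 0.12.2 and the mouse build mm10, although the table holds pig gene IDs, and no pig annotation release is given in the sources used here. Groups came from the sample titles, and 0 columns were left unused. TPM were summed per gene ID, and 30 listed transcripts belonged to the 10 genes. ARPC1A was found through its description.

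Levels of log2(TPM + 1) were compared in R 4.3.3 with limma 3.58.1 (eBayes with a trend), with Benjamini-Hochberg adjustment over the 8708 genes that reached a mean of 1 TPM. The steps were tested on simulated data. The authors used edgeR, a count model that could not be applied to TPM. The 10 genes, the 6 lists and the tests were chosen with earlier results of these data known. Other genes were named by rule: the 5 most like ARPC5 and the 5 most like ACTB, the 3 largest changes with an FDR under 0.05 and the 2 most abundant tested genes of each list, and near copies; any other is said to have been picked later or stands for a count or a marker. RefSeq Sscrofa11.1 gave names and neighbours only.

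Alternatives were a pseudocount of 0.1 TPM, a filter at 0.5 TPM or none, 3 other scalings, the highest listed transcript, a replicate block, limma without the trend, no fold limit and each library left out. The listed transcripts of the 10 genes were also examined singly, a choice made after seeing the data. The results for 1 further list and for the neighbours of ARPC5 are not reported here.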

Additional observations from a re-analysis of the deposited data

How the results depend on the processing

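Under other settings, 509 genes were called higher and 505 lower with a pseudocount of 0.1 TPM, and 523 and 481 with the listed TPM rescaled to 1000000, against 306 and 340. Without the fold limit, 2550 were called higher and 2085 lower. Calls in the actin lists were 8 with a pseudocount of 0.1 TPM and 7 after rescaling, against 4. The log2 fold change of ARPC5 was -7.94 with a pseudocount of 0.1 TPM and -6.43 after rescaling, with a range over left-out libraries of -5.70 (CON replicate 3 left out) to -4.66 (CON replicate 1 left out). With totals without the mtDNA-encoded genes, ARPC1A turned from 0.0754 to -0.0773, ACTB was at -0.87, and the summed ARP2/3 level was 0.843 times that of CON, against 0.937.

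Over the 6 fits that lacked 1 library, the genes called higher numbered 305 to 327 and those called lower 337 to 359, calls in the lists were 4 to 6, the log2 fold change of ACTB was -0.77 to -0.67, the ratio of the summed ARP2/3 level was 0.904 to 0.974, and the mean ARPC5 share in CON was 28.7% to 44.2%. Replicate numbers showed no visible pairing of the samples. Deviations of same-numbered libraries correlated at -0.04, -0.09 and -0.05, and those of unlike-numbered libraries at -0.03 to 0.07. A pairing is not stated by the labels or the paper, and these correlations cannot settle it. With a replicate block 309 genes were called higher and 343 lower. In the lists 30 genes rose and 20 fell with the block, against 32 and 21. ACTL6A (limma FDR 0.0636) and MYL6 (0.0522) were among those that did not pass. A count test was not run, since TPM keep no depth. With a mean under 1 TPM, ARPC2's highest listed transcript was not tested.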

Other observations

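One gene ID without a symbol, ENSSSCG00000040136, picked after its values were seen, was also listed high in CON replicates 1 and 2 and at 0 in CDCA, at 59.66, 38.41 and 0 TPM in CON and 0 TPM in all 3 CDCA libraries. Unlike ARPC5, it was also listed at 0 in CON replicate 3, and it did not pass the test (log2 fold change -3.74, SE 1.46).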
